A study of Mus musculus with 6 samples.

Results

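Rpl3 and Rpl3l are the pair of mouse genes that encode forms of the large ribosomal subunit protein uL3. They were found in a table of messenger RNA (mRNA) read counts by their gene symbols, as 2 of its 14495 genes. They were selected on their counts at the 2 ages in these same libraries, so their levels, fold changes and shares are given as a description, without a test. The series compared hearts at day 14 after birth (P14) with hearts at day 1 (P1), all from untreated male C57BL/6 mice. Each age had 3 libraries, each library was a pool of 3 hearts, and 9 hearts were used per age. The dissection protocol describes ventricles with the septum and without atria, whereas the tissue field names the left ventricle. RNA was poly(A)-selected and read for 36 cycles on a Genome Analyzer IIx, an early short-read sequencer.

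The uL3 protein reaches with a long loop into the peptidyl transferase centre, the site where the ribosome joins amino acids. Rpl3 encodes the form used in most tissues, and Rpl3l is a paralog whose mRNA is known mainly from heart and skeletal muscle. A ribosome holds only 1 copy of uL3, so the forms are alternatives for the same place. Ribosomal protein genes have left many processed pseudogenes in mammalian genomes, which are intronless copies made from mRNA, and short reads may match the gene and its copies equally well.

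At P14, Rpl3l mRNA was 33.1-fold higher than at P1, with no overlap between the ages. Such a separation, with P14 above P1, occurred in 27.3% of all genes tested. The row of Rpl3 held between 4 and 28 counts in every library, and its ages overlapped. A processed pseudogene of Rpl3, Rpl3-ps1, held between 193 and 1145 counts in the same libraries, was nearly identical to the Rpl3 coding sequence, and fell by 0.79 on the log2 scale at P14. The Rpl3l share of the pair was higher at P14 than at P1 under each of 5 ways of counting Rpl3. These ways use the same Rpl3l counts and are not independent, and the mean share at P1 lay anywhere between 3.15% and 92.6%.

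In the GENCODE M21 annotation of the GRCm38 build, Rpl3 (ENSMUSG00000060036) spans chr15:80077791-80091868 on the minus strand. Rpl3l (ENSMUSG00000002500) spans chr17:24727820-24736143 on the plus strand. Rpl3-ps1 (ENSMUSG00000084349), annotated as a processed pseudogene, spans chrX:13202571-13203780 on the plus strand. It is not 1 of the pair and was singled out after its values had been seen. Both coding genes have 10 exons in the transcript with the longest coding sequence, and 8 of their 8 internal exons have equal lengths in Rpl3 and Rpl3l. The coding sequence of Rpl3 measures 1212 bases with its stop codon and that of Rpl3l 1224. Rpl3l differed from Rpl3 in 310 of 1208 aligned coding bases, an identity of 74.3%, and the longest identical run was 22 bases, shorter than a read. Rpl3-ps1 differed from Rpl3 in 2 of 1209 aligned bases, an identity of 99.8%, and the longest identical run was 728 bases.

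The junction of exons 3 and 4 shows how the 3 sequences relate, because a read that crosses it would mark spliced Rpl3 mRNA in a genome without a processed copy. The stretch holds the last 30 bases of exon 3 and the first 30 bases of exon 4, coding bases 336 to 395 of Rpl3. Capitals mark bases that differ from Rpl3, and each sequence is written 5′ to 3′ in the sense of the gene. Rpl3 lies at chr15:80081615-80081644 and chr15:80081002-80081031 (minus strand), Rpl3-ps1 at chrX:13202907-13202966 (plus strand), and Rpl3l at chr17:24731008-24731037 and chr17:24732336-24732365 (plus strand), all GRCm38.
Rpl3: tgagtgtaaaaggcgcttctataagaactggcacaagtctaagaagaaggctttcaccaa
Rpl3-ps1: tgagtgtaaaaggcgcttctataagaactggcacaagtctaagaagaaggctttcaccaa
Rpl3l: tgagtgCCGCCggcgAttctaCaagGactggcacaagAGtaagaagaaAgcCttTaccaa
The pseudogene differed from Rpl3 at 0 of these 60 bases and Rpl3l at 13. Of the 25 windows of 36 bases inside the Rpl3 stretch, 25 cross the junction, and 25 are also present in Rpl3-ps1, where the same bases lie uninterrupted.

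The other stretch is shown because it holds 1 of the 2 coding bases that differ between Rpl3 and its pseudogene, the one whose Rpl3 windows occur in no other gene. It covers coding bases 766 to 806 in exon 6 of Rpl3, with base 786 in the centre. Rpl3 lies at chr15:80079733-80079773 (minus strand), Rpl3-ps1 at chrX:13203337-13203377 (plus strand) and Rpl3l at chr17:24733661-24733701 (plus strand). Capitals again mark bases that differ from Rpl3.
Rpl3: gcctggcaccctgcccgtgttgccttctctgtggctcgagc
Rpl3-ps1: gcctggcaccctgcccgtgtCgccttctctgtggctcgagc
Rpl3l: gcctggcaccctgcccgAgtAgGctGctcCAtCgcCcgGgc
Of these 41 bases, the pseudogene differed from Rpl3 at 1 and Rpl3l at 9.

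To see how much of each mRNA a read of 36 bases can assign, every 36-base window of the Rpl3 and Rpl3l transcripts was searched in all annotated transcripts on both strands. Of the 1340 windows of Rpl3l, 1340 were found in no other gene. Of the 1316 windows of Rpl3, 174 (13.2%) were found in no other gene. They lay in 3 runs, with 79 windows at the 5′ end, 36 windows over base 786 and 59 windows at the 3′ end. Rpl3-ps1 held 1103 of the Rpl3 windows (83.8%), and 284 of these cross an exon junction of Rpl3. Of the 1103, 145 were shared by Rpl3 and Rpl3-ps1 alone, and 78 of these 145 cross a junction. Windows of Rpl3 also occurred in other processed pseudogenes, among them Gm5879 with 844 windows and Rpl3-ps2 with 814. Of the genes that share windows with Rpl3, only Rpl3-ps1 has a row among those analysed here. The labels and file headers do not say how reads with more than 1 match were assigned, and the part that this plays in the counts of Rpl3 and Rpl3-ps1 was not tested.

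**Figure D1:**
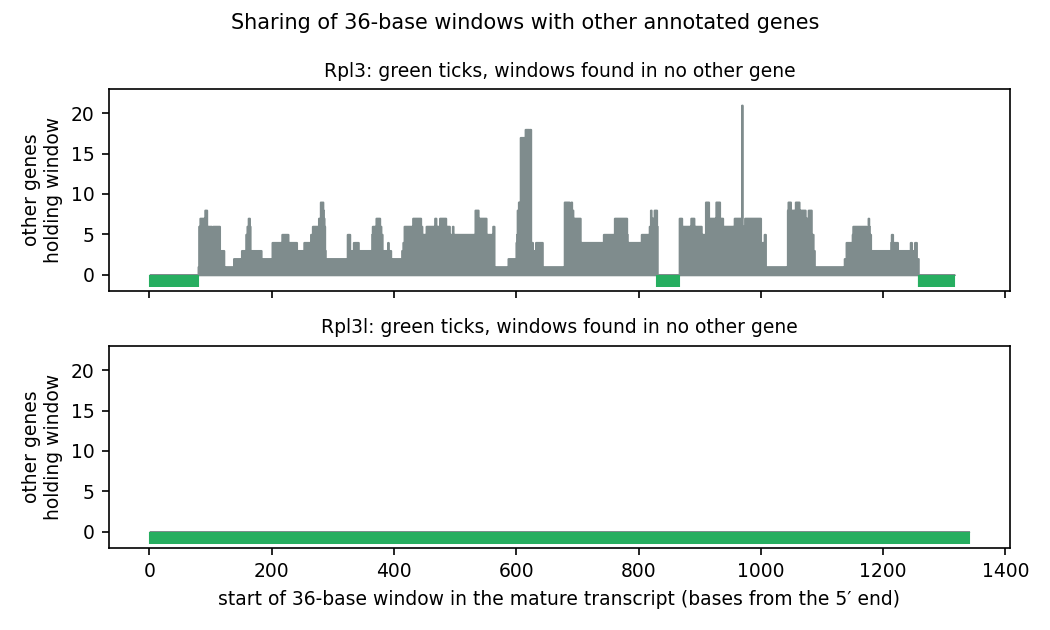
Number of other annotated genes that hold each 36-base window (vertical axis) by the window's start along the mature transcript in bases from the 5′ end (horizontal axis), for Rpl3 and Rpl3l; green ticks mark windows found in no other gene. Only 174 of 1316 Rpl3 windows are green, in 3 runs, whereas all 1340 windows of Rpl3l are.

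The libraries held 15725993, 9104230 and 9295536 counts at P14 and 17353933, 13406479 and 5916557 counts at P1. Levels are given as CPM, counts scaled to library size and adjusted by TMM factors (trimmed mean of M-values), which were 0.827 to 0.904 at P14 and 1.00 to 1.28 at P1. P1 replicate 2 stood apart, and not in ribosomal protein mRNA alone. In 46 of the 71 core ribosomal protein rows it was the lowest P1 library, and its summed level of small subunit rows was 2548 CPM, against up to 4892 CPM in the other P1 libraries. It was also low in Tnni1 (2191 CPM, against 4853 and 4265), Ckm (687, against 2960 and 1926) and Eef1a2 (209, against 615 and 628). Not all genes were lower in it, since Mrpl3 had 112 CPM, against 87.5 and 95.6. Of 14301 genes tested with edgeR, 3115 rose (21.8%) and 3149 fell (22.0%) at an adjusted p under 0.05. Over all genes the median log2 fold change was -0.01, and scaling by library totals alone moved it to -0.47. All 15 cardiomyocyte markers had a row, and 8 rose and 1 fell.

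Rpl3l had 3487, 2097 and 1557 counts in the P14 libraries, against 160, 121 and 44 counts in the P1 libraries. Its level was 245, 278 and 201 CPM at P14, against 7.40, 7.05 and 7.41 CPM at P1. Every P14 library lay far above every P1 library. The P1 libraries were close to each other, but with 44 to 160 counts each their SD understates the counting error. The means were 241 ± 39.1 CPM at P14 and 7.29 ± 0.203 CPM at P1 (SD, n = 3 each). The log2 fold change was 5.05 ± 0.23 (SE), or 33.1-fold, and without P1 replicate 2 it was 5.02. Rpl3l ranked 28 of 14301 genes by log2 fold change, and among the 8439 genes with a mean of at least 10 CPM, 10 had a larger one. A complete separation of the ages with P14 above P1 occurred in 27.3% of all genes, so that the separation by itself is common here. Since the libraries were made from ventricular tissue, fewer cells of a type and less RNA per cell cannot be told apart. The summed level of the 15 cardiomyocyte markers was 114986 to 132790 CPM at P14 and 71215 to 77899 CPM at P1, and its part in the Rpl3l result was not tested.

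Rpl3 had 9, 8 and 7 counts in the P14 libraries, against 28, 24 and 4 counts in the P1 libraries. In CPM its level was 0.633, 1.06 and 0.901 at P14, against 1.295, 1.399 and 0.674 at P1. The lowest P1 library lay below 2 of the 3 P14 libraries, so the ages overlapped. The means were 0.866 ± 0.217 CPM at P14 and 1.12 ± 0.392 CPM at P1 (SD, n = 3 each). The filter on low counts removed this row, and without a filter its log2 fold change was -0.50 ± 0.46 (SE).

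Rpl3-ps1 had 503, 232 and 193 counts in the P14 libraries, against 1145, 795 and 346 counts in the P1 libraries. Its level was 35.4, 30.8 and 24.9 CPM at P14, against 53.0, 46.3 and 58.3 CPM at P1, and every P14 library lay below every P1 library. A complete separation in that direction occurred in 27.5% of all genes tested, so it is common here. The log2 fold change of Rpl3-ps1 was -0.79 ± 0.20 (SE), and over the 11 alternatives it ran from -1.23 to -0.66. These values are given as a description without a test, because this row was singled out after its values had been seen. Counts of Rpl3-ps1 per count of Rpl3 numbered 55.9, 29.0 and 27.6 in the P14 libraries, against 40.9, 33.1 and 86.5 in the P1 libraries. This ratio had no order by age. Reads of Rpl3 mRNA and transcripts of the pseudogene itself cannot be told apart in 1103 of the 1316 Rpl3 windows.

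**Figure D2:**
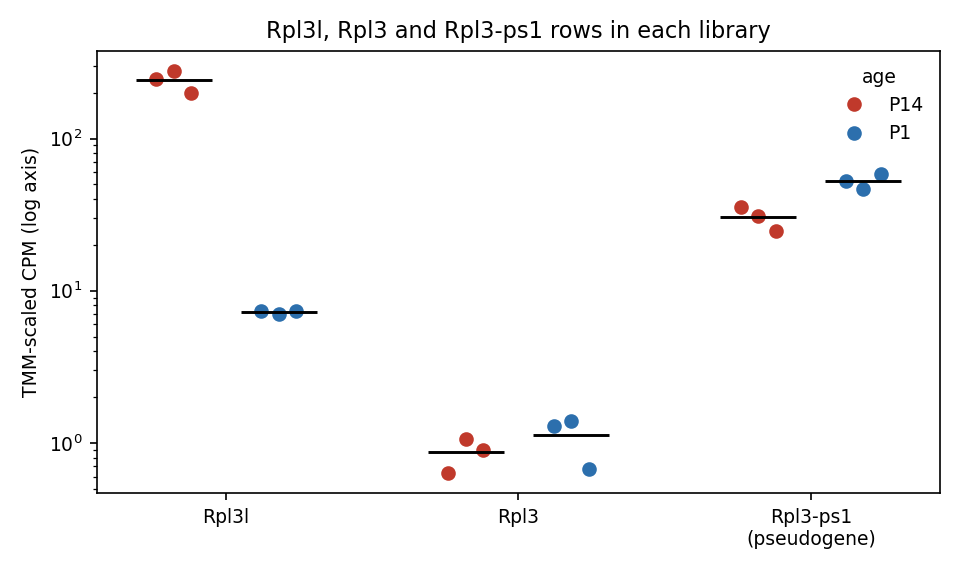
TMM-scaled CPM (vertical axis, log scale) of Rpl3l, Rpl3 and Rpl3-ps1 in each library, P14 left of P1. Rpl3l lies at 201 to 278 CPM at P14 and at 7.05 to 7.41 CPM at P1, Rpl3 lies near 1 CPM at both ages, and Rpl3-ps1 lies at 24.9 to 35.4 CPM at P14 and at 46.3 to 58.3 CPM at P1.

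The paralog share, Rpl3l over the sum of Rpl3 and Rpl3l, was computed in each library with 95% exact (Clopper-Pearson) intervals that cover counting error only, since PCR copies are not independent molecules. From the rows as deposited it was 99.7%, 99.6% and 99.6% in the P14 libraries, against 85.1%, 83.4% and 91.7% in the P1 libraries. The interval of P1 replicate 3, with the fewest counts, was 80.02% to 97.68%. The mean share was 99.6 ± 0.0964% at P14 and 86.7 ± 4.35% at P1 (SD, n = 3 each). On these rows Rpl3l already made up most of the pair at P1, so they show no age at which Rpl3 exceeded Rpl3l.

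The share changed with the way in which Rpl3 was counted. Dividing counts by the annotated exon length gave 99.8% at P14 and 92.6% at P1. That length covers the exons of all annotated forms, 3175 bases for Rpl3 and 1643 for Rpl3l. The transcripts with the longest coding sequence measure 1351 and 1375 bases, so the 92.6% depends on the length chosen. Dividing by the windows that only the gene itself holds gave 97.3 ± 0.709% at P14 and 47.0 ± 10.4% at P1. Division by such windows assumes that a row counts only reads from them, which the labels do not say. When counts of Rpl3-ps1 were added to those of Rpl3, a choice made after seeing the data, the share was 87.2%, 89.7% and 88.6% in the P14 libraries, against 12.0%, 12.9% and 11.2% in the P1 libraries. The same sum divided by the 319 Rpl3 windows that no gene other than Rpl3 or Rpl3-ps1 holds gave 64.8 ± 2.84% at P14 and 3.15 ± 0.246% at P1, without the 36 windows that only Rpl3-ps1 holds in the divisor. Under each of the 5 ways every P14 library lay above every P1 library. The 5 ways are not independent, since all use the same Rpl3l counts. Division by exon length or windows rescales the same counts by constants and cannot change the order of libraries. Rpl3l exceeded the other form in all P1 libraries under the rows as deposited and per exon length, in 1 of 3 per unique window, and in 0 of 3 where Rpl3-ps1 was included.

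**Figure D3:**
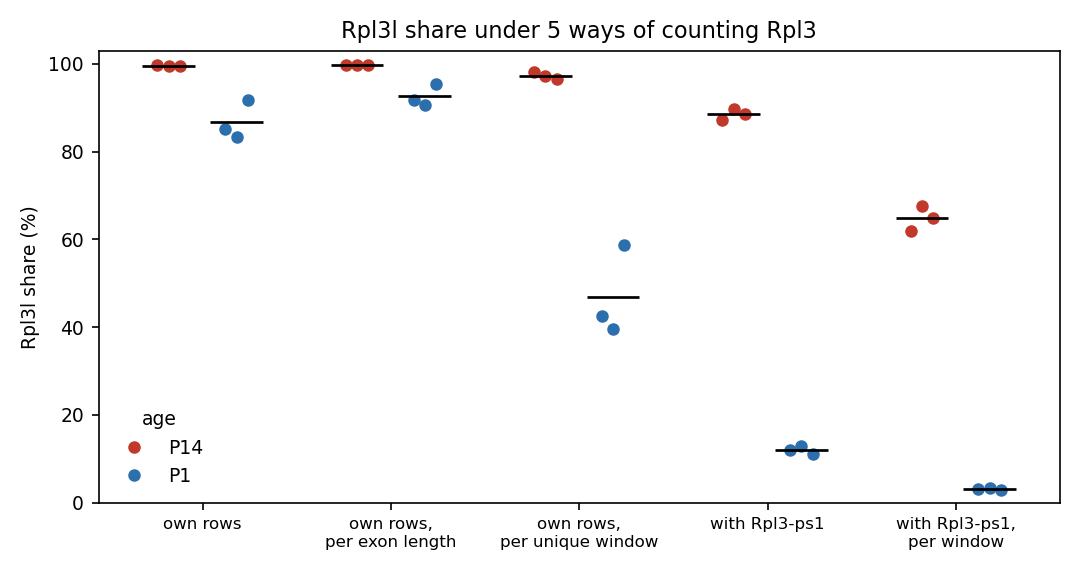
Share of Rpl3l in the pair (vertical axis, percent) in each library under 5 ways of counting Rpl3, P14 left of P1; points are libraries and black lines are means of 3. P14 libraries lie above P1 libraries in every case, with the same Rpl3l counts used in all 5 ways, while the P1 mean lies between 3.15% and 92.6%.

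Levels were also divided by window number, under the assumption, not tested, that a row counts only reads from those windows. Rpl3l had 183, 208 and 150 CPM per 1000 unique windows in the P14 libraries, against 5.52, 5.26 and 5.53 in the P1 libraries. Rpl3 had 3.64, 6.10 and 5.18 CPM per 1000 unique windows at P14, against 7.44, 8.04 and 3.87 at P1. On this scale Rpl3l stood well above Rpl3 at P14, and at P1 the values of the pair lay within the spread of Rpl3. Rpl3-ps1, with 36 unique windows, had a mean of 843 CPM per 1000 unique windows at P14 and 1459 at P1. Rpl3 and Rpl3-ps1 together had 113, 99.9 and 80.7 CPM per 1000 of these 319 Rpl3 windows at P14, against 170, 150 and 185 at P1. That joint level lay below Rpl3l in every P14 library and above Rpl3l in every P1 library.

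Core ribosomal proteins, those of the standard subunits other than Rpl3, were set beside the pair. Of 78 listed, 71 had a row, and levels are given per 1000 windows of the main transcript to adjust for length. The main transcript is the one with the longest coding sequence, and the longest of these where several tie. Whether that form was the one expressed was not tested, so a long annotated form may lower the level of a gene and alter its percentage of unique windows. On that scale Rpl3 had 0.658 CPM at P14, lower than all 71 core rows, and the next row was Rpl17 with 0.677 CPM; their levels lay within the spread of the libraries. The 13 core rows with under 20% unique windows, among which Rpl3 would fall, had 1.57 to 13.2 CPM per 1000 windows at P14, with a median of 4.74. The 52 rows with 20% to 80% unique windows had 0.677 to 629.7, with a median of 9.94, and the 6 rows with at least 80% had 3.58 to 1364, with a median of 213. The medians were thus higher in the classes with more unique windows, while the ranges overlapped. Rpl3l, at 180.2 CPM per 1000 windows at P14, lay above 3 of the 6 rows of high uniqueness and below the other 3, and at P1, with 5.44, it lay below all 6. Among the rows below Rpl3l at P14, Rps15a (3.58) and Rps20 (17.9) were divided by 5144 and 3671 windows, so their low places depend on the transcript chosen.

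**Figure D4:**
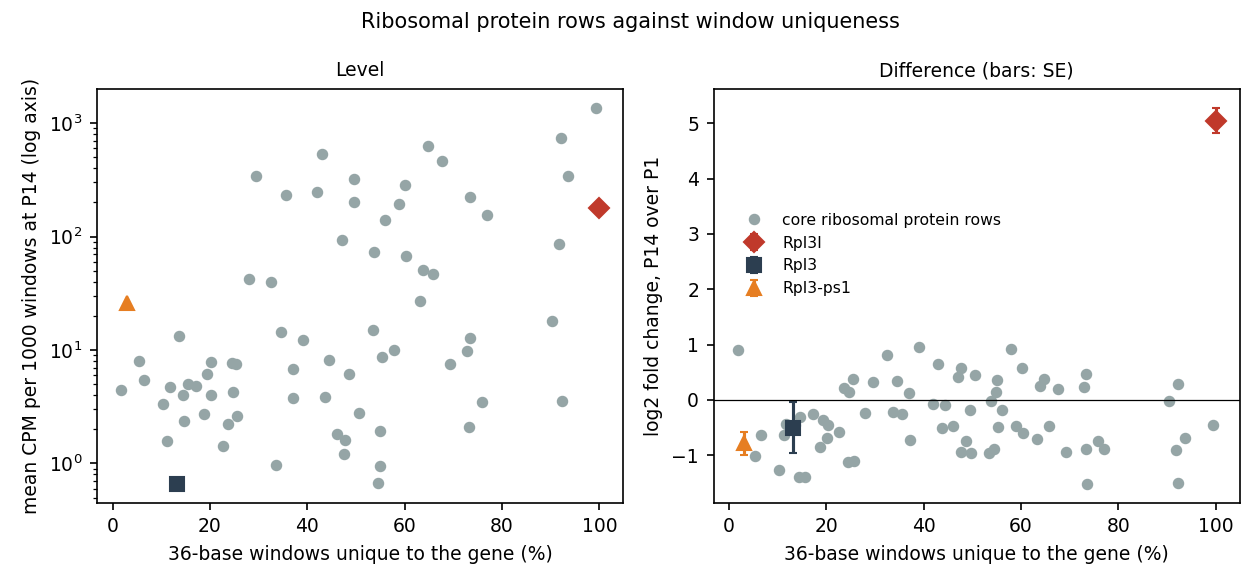
Ribosomal protein rows by the percentage of 36-base windows found in no other gene (horizontal axes), with the mean CPM per 1000 windows at P14 on a log axis (left) and the log2 fold change of P14 over P1 (right; bars on the named rows are SE). Rpl3 lies at the lower left with 13.2% unique windows, and Rpl3l at 100% has a log2 fold change of 5.05 while core rows lie between -1.52 and 0.95.

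Of the 44 large subunit rows tested, 0 rose and 14 fell, against a background of 21.8% risen and 22.0% fallen, and the median log2 fold change was -0.47, against -0.01 over all genes. Rpl4, a protein that lines the exit tunnel, fell by 1.52 ± 0.21 (SE) on the log2 scale, with 334.7 ± 61.9 CPM at P14 and 960.7 ± 98.3 CPM at P1 (SD, n = 3 each; edgeR, adjusted p = 6.36e-05). Rpl5, which binds 5S ribosomal RNA, fell by 1.02, and Rpl31, a protein near the tunnel exit, fell by 0.97. Unique windows make up 73.5% of those of Rpl4, 53.4% of those of Rpl31 and only 5.42% of those of Rpl5. The limit on Rpl3 thus touches Rpl5 as well. At an unadjusted p under 0.05 in edgeR, 0 large subunit rows rose, and 0 rose in DESeq2. With the replicate number as a block 2 rose, without P1 replicate 1 the number was 5, and with library totals alone 25 fell.

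Of the 27 small subunit rows tested, 1 rose and 5 fell, against a background of 21.8% risen and 22.0% fallen. The share that fell was thus near the background and the share that rose below it. The log2 fold changes of these rows had a median of -0.02. Rps15a fell by 1.498 and Rps3, a protein of the mRNA entry channel, fell by 0.69 on the log2 scale. The row that rose was Rps28, with 4.90 ± 0.803 CPM at P14 and 2.65 ± 0.936 CPM at P1 (SD, n = 3 each; log2 fold change 0.95, edgeR, adjusted p = 0.0295). The call of Rps3 ended without P14 replicate 2, P14 replicate 3 or P1 replicate 3. With the replicate block 2 small subunit rows rose, and without any 1 of the P14 libraries or without P1 replicate 2 none did. The number that fell was 3 without P14 replicate 3, 8 without P1 replicate 2, and 10 with library totals alone. Over both subunits the log2 fold changes ran from -1.52 for Rpl4 to 0.95 for Rps28, and 48 of 71 lay below 0. Rpl3l, at 5.05, lay above that range, and Rpl3-ps1, at -0.79, lay inside it, with 17 core rows lower.

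Other ribosomal proteins with a paralog did not share the size of the Rpl3l difference. Of 5 such paralogs tested, 0 rose and 1 fell, against a background of 21.8% risen and 22.0% fallen, so the share that fell was near the background. At an unadjusted p under 0.05, 0 rose in edgeR, and 0 rose in DESeq2. The one that fell was Rpl22l1, the paralog of Rpl22, with 5.98, 4.38 and 4.64 CPM in the P14 libraries, against 19.6, 22.2 and 13.3 CPM in the P1 libraries (log2 fold change -1.87, edgeR, adjusted p = 7.55e-05). Per window its share of the pair with Rpl22 was 10.1 ± 0.758% at P14 and 18.1 ± 4.79% at P1, but only 29.8% of the Rpl22l1 windows are unique. Rpl7l1 had 75.0% at P14 and 56.6% at P1 of its pair with Rpl7, whose own windows are 24.5% unique. Without P1 replicate 1, 1 of these paralogs rose, without P14 replicate 1 there were 2 that fell, and with library totals alone there were 3.

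Heart muscle changes isoforms of several proteins after birth, and the pairs listed for comparison give a scale for Rpl3l. Tnni3, the adult cardiac troponin I, made up 99.8 ± 0.115% of its pair with Tnni1, the slow skeletal form of the fetal heart, at P14, and 43.4 ± 6.11% at P1. Both of these genes have only unique windows. Tnni3 rose by 2.07 and Tnni1 fell by 7.13 on the log2 scale (edgeR, adjusted p = 1.68e-05 and 6.31e-06). Myh6 made up 98.3 ± 0.291% of its pair with Myh7 at P14 and 47.8 ± 6.59% at P1. Cox8b made up 93.0 ± 0.763% of its pair with Cox8a at P14 and 52.6 ± 11.1% at P1. In the translation apparatus, Eef1a2, the muscle and neuron form of the factor that brings aminoacyl-tRNA to the ribosome, made up 86.1 ± 2.01% of its pair with Eef1a1 at P14 and 46.2 ± 11.4% at P1. The Eef1a1 windows are only 28.2% unique, so the limit on Rpl3 touches that pair as well. Shares of Ckm, Eno3 and Slc25a4 were above 95% at both ages. The same limit touches the last of these, since windows of Eno1, paired with Eno3, are 24.1% unique and those of Slc25a5, paired with Slc25a4, 37.6%.

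**Figure D5:**
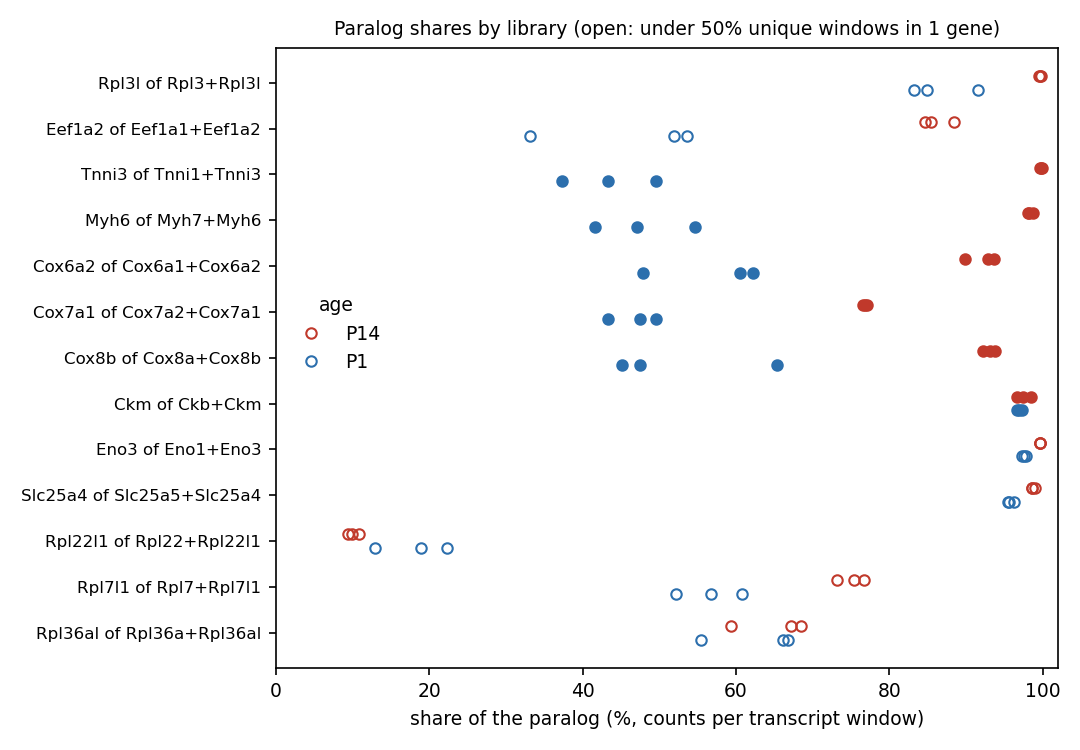
Share of the named paralog in each pair (horizontal axis, percent of counts per transcript window) by library, P14 above P1 within each pair; open symbols mark pairs in which 1 gene has under 50% unique windows. Tnni3 and Myh6 lie above 98% at P14 and below 55% at P1, while Ckm, Eno3 and Slc25a4 lie above 95% at both ages.

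Genes that act with uL3 or on ribosome assembly gave few calls. Grwd1, whose yeast counterpart is a chaperone of newly made uL3, had 13.3 ± 3.87 CPM at P14 and 17.96 ± 1.16 CPM at P1 (SD, n = 3 each; log2 fold change -0.41, edgeR, adjusted p = 0.185). Mettl18, the methyltransferase that modifies a histidine of uL3, had 2.65 ± 0.651 CPM at P14 and 1.85 ± 0.569 CPM at P1 (log2 fold change 0.52, adjusted p = 0.274). Mrpl3, the mitochondrial counterpart of uL3, had 100.8 ± 17.1 CPM at P14 and 98.5 ± 12.6 CPM at P1. None of these 3 genes passed the test, although Grwd1 did with library totals alone or without P14 replicate 1, each time lower at P14. Of 34 assembly genes tested, 2 rose and 5 fell, each share below the background. Las1l, of the complex that cuts the pre-ribosomal RNA spacer, rose by 0.67, and Polr1a, the largest subunit of RNA polymerase I, by 0.58 on the log2 scale. Nmd3, the export adaptor of the large subunit, fell by 1.02, Nop56, a box C/D small nucleolar ribonucleoprotein component, fell by 0.79, and Nip7, a large subunit assembly factor, fell by 0.72. Without P14 replicate 2, 0 rose and 1 fell, without P14 replicate 3, 1 rose and 1 fell, and without P1 replicate 1 or P1 replicate 3, 1 rose. With library totals alone 0 rose and 18 fell, so the number of calls in this list depends on the scaling.

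Of 11 elongation and termination factors tested, 2 rose and 2 fell, shares near the background of 21.8% risen and 22.0% fallen. Eef1a2 rose by 1.12 ± 0.35 (SE) on the log2 scale, with 1048 ± 148 CPM at P14 and 483.8 ± 238 CPM at P1 (SD, n = 3 each; edgeR, adjusted p = 0.0255), and Eef1d, a nucleotide exchange subunit, rose by 0.76. Eef1a1 fell by 1.59 and Eef1b2, another exchange subunit, fell by 0.78. The call of Eef1a2 ended without P14 replicate 1 or 2, and the call of Eef1d without P14 replicate 2 or with library totals alone. Without P14 replicate 2 no factor rose, without P1 replicate 2, 5 fell, and with library totals alone 1 rose and 9 fell.

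Rpl3l is also known from skeletal muscle, so 15 markers of that tissue were examined. Of these, 11 have no row among those analysed here, among them Myh1, Myh4, Actn3 and Myod1. The other 4 summed to 20.2 to 23.4 CPM at P14 and 11.3 to 18.1 CPM at P1, and 1 of them, Tnni2, the fast troponin I, rose by 1.11 on the log2 scale, a call that ended with library totals alone. With the replicate block Pvalb, a calcium buffer of fast fibres, passed the test as well. Markers of other cells moved too: 7 of 8 macrophage markers rose (246 to 292 CPM summed at P14, 55.7 to 80.4 CPM at P1), as did 5 of 5 erythroid markers (2685 to 3584 CPM at P14, 464 to 977 CPM at P1). Of the endothelial markers 3 of 8 rose, of the fibroblast markers 1 of 9 rose and 1 fell, and of the smooth muscle and pericyte markers 3 of 5 rose and 2 fell. Over all genes tested 21.8% rose and 22.0% fell. The fibroblast shares lay below that background, and 1 call among 4 skeletal muscle markers lay near it. The part of all these markers in the results was not tested.

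Overlaps of Rpl3l and Rpl3 with other genes were listed, because reads of an overlapping neighbour could enter their rows. The nearest coding genes that do not overlap them were compared as a description and do not bear on that question. No annotated gene overlaps Rpl3l. Rpl3 holds the small RNA genes Snord83b, Snord43, Gm24204 and Gm22077 on its own strand, of which Gm22077 overlaps an exon, and it overlaps Syngr1 on the opposite strand outside exons. The level of Syngr1 is not reported here. Msrb1, a selenoprotein that repairs oxidised methionine, lies 498 bases from Rpl3l and rose by 2.32 ± 0.23 (SE) on the log2 scale, with 338.1 ± 58.9 CPM at P14 and 68.1 ± 17.2 CPM at P1 (SD, n = 3 each; edgeR, adjusted p = 3.53e-06). Ndufb10, a subunit of respiratory complex I, lies 3341 bases away and rose by 1.51. Hagh, a glyoxalase gene 103999 bases away, rose by 0.64 (edgeR, adjusted p = 0.0388), a call that ended with library totals alone and without any 1 of the P14 libraries or P1 replicate 2. Rps2, a small subunit protein, had 4.42 CPM at P14 and 5.34 CPM at P1 and did not pass the test, and only 17.2% of its windows are unique. The fold of Rpl3l was larger than that of each of these neighbours. The neighbours of Rpl3 lie 41258 to 142149 bases away. Of these, Pdgfb rose by 1.14, Tab1 by 1.26 and Cbx7 by 2.65, and Mief1 had 32.4 CPM at P14 and 31.7 CPM at P1.

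The genes whose pattern over the 6 libraries was most like that of Rpl3l were found by the root mean square difference of centred log2(CPM + 0.5), among 8395 genes of at least 10 CPM on average. They were Rxrg, a retinoid X receptor, with a difference of 0.218, 2210408F21Rik with 0.225, Myh14, a non-muscle myosin heavy chain, with 0.229, Art1, an ADP-ribosyltransferase of muscle, with 0.230, and Lrg1, a secreted glycoprotein, with 0.319. The median gene differed by 2.46. The added 0.5 CPM exceeds the P1 level of 2210408F21Rik (0.321 CPM), so its place understates its log2 fold change of 6.39. Rxrg had 77.9 CPM at P14 and 1.86 CPM at P1, and Art1 had 139.6 CPM at P14 and 3.15 CPM at P1. These 5 genes share with Rpl3l a low level at P1 and a level many-fold higher in every P14 library. For Rpl3 the closest were Tspyl2 with 0.0791, Tra2a with 0.107, Rsbn1l with 0.110, Pdcd5 with 0.133 and Fam46a with 0.134, against a median of 0.470, but with 4 to 28 counts per library that order rests on few reads. The added 0.5 CPM is also large beside the Rpl3 means of 0.866 and 1.12 CPM and shrinks its differences.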

How the data were processed

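The authors deposited whole-number read counts per gene for 6 libraries, named by Ensembl identifier and symbol. Per the submitters' processing notes, the build was GRCm38 (mm10), and the tools named, without a role, are edgeR 3.2.4 and bedtools. For the aligner, counting program, use of strand and rule for multi-mapping reads, nothing is given in the sources used here. The smallest row total is 60, so rarer genes are not analysed here.

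DESeq2 1.42.0, edgeR 4.0.16 and limma 3.58.1 were run under R 4.3.3. filterByExpr (minimum count 10) kept 14301 of 14495 genes. P14 was compared with P1 after TMM scaling by the robust quasi-likelihood F-test of edgeR, two-sided, with Benjamini-Hochberg adjustment and a threshold of 0.05. The common biological coefficient of variation was 23.0%. SE is the log2 fold change divided by the square root of F. Rpl3 failed the filter, so its fold change comes from the fit without a filter, a departure from the plan. The procedure was tested on simulated data. Alternatives were DESeq2 size factors, library totals, no filter, DESeq2, the replicate block and each library left out.

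Positions and transcripts came from GENCODE M21, where 14320 genes were found by identifier and 175 were not; 6 rows carried older symbols, and the row with the symbol Rpl24, whose identifier belongs to Zbtb11, was left out of the ribosomal proteins. A window is 36 bases, searched in annotated transcripts only, not in the genome. No 2 libraries agreed within sampling noise: the lowest chi-square per degree of freedom was 13.0.

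The labels do not say that replicate numbers are shared between ages. Deviations from the age means correlated at 0.295, 0.112 and 0.102 for the same number and at -0.214 to 0.0900 for different numbers. The values for the same number were the higher ones, but 0.112 and 0.102 lay close to 0.0900. Whether the numbers pair the libraries was not tested. The reported tests have no replicate term, and the block is an alternative.

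The pair, the gene lists and the paralog pairs were chosen with earlier results of these data known. Named genes were Grwd1, Mettl18, Mrpl3 and Rpl4, up to 3 called genes per list and direction with at least 10 CPM, 2 neighbours per side, all listed paralog pairs, the 5 genes most like each of the pair, and ribosomal proteins next to it in level or fold. Genes outside that rule were chosen after their values were seen. Some genes that the rule names are not reported here.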

Additional observations from a re-analysis of the deposited data

How the results depend on the processing

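Of 169 alternative values for 16 results, 129 kept their direction and stayed near the reported value (a count within 1.5 times, another value within 1 SD of the replicates), and 40 moved. With library totals alone, 1620 genes rose and 5592 fell, 25 large subunit rows fell, 0 small subunit rows rose and 10 fell, 3 other paralogs fell, 0 assembly genes rose and 18 fell, 1 elongation or termination factor rose and 9 fell, and the log2 fold changes were 4.58 for Rpl3l and -0.99 for Rpl3. With the replicate block 2 large and 2 small subunit rows rose; among the named genes Cox7a2 lost its call and Pvalb and Rps24 gained one, and the block changed no other call of a named gene. The Rpl3l share was 99.8% at P14 and 92.6% at P1 per exon length, 97.3% and 47.0% per unique window, 88.5% and 12.0% with Rpl3-ps1 counted with Rpl3, and 64.8% and 3.15% with that sum per window. Leaving out 1 library at a time gave 2387 to 3401 risen and 2269 to 3309 fallen genes, 0 to 5 risen and 10 to 16 fallen large subunit rows, 0 to 1 risen and 3 to 8 fallen small subunit rows, 0 to 1 risen and 1 to 2 fallen other paralogs, 0 to 2 risen and 1 to 6 fallen assembly genes, and 0 to 2 risen and 2 to 5 fallen elongation or termination factors. The log2 fold change ran from 4.94 to 5.17 for Rpl3l and from -0.67 to -0.28 for Rpl3, and the share from the deposited rows from 99.6% to 99.7% at P14 and from 84.3% to 88.4% at P1. The cause of the moves with scaling or a left-out library was not tested. Values of Rpl3 rest on 4 to 28 counts per library.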
